A study of Mus musculus with 42 samples.

Results

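Kidneys that lack both Tsc2 and Tfeb in their tubules (double knockout, DKO) were compared with kidneys that lack only Tsc2 (Tsc2 KO), in mice that had all been treated with rapamycin. The samples were chosen by their labels and are the 3 libraries labelled as rapamycin-treated DKO and the 3 labelled as rapamycin-treated Tsc2 KO, 6 of the 42 whole-kidney samples of the series. The comparison asks which transcripts still differ with Tfeb when mTORC1 is inhibited by the drug. Tsc2 KO mice carried KspCre and floxed Tsc2 (KspCre+; Tsc2 fl/fl), and DKO mice carried floxed Tfeb as well (KspCre+; Tsc2 fl/fl; Tfeb fl/fl). KspCre is driven by the promoter of Cdh16, the kidney-specific cadherin of tubular epithelium, so vessels, immune cells and stroma were not targeted, and a whole-kidney value averages recombined and unrecombined cells. All mice were of the C57BL/6 background. Rapamycin was injected into the peritoneum at 1 mg/kg, 3 times per week from day 25 after birth, for 11 injections in all, and kidneys were taken at day 50. Of the other 12 libraries of this cohort, 3 came from rapamycin-treated controls (labelled wild type, and Cre-negative by the study's figure legends). The others came, 3 each, from control, Tsc2 KO and DKO mice given vehicle over the same time. A separate KspCre cohort without treatment gave 3 libraries each of DKO, Tsc2 KO, Tfeb KO (KspCre+; Tfeb fl/fl, with Tsc2 intact) and control kidneys, also at day 50.

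TSC2 is part of the complex that keeps mTORC1 inactive through the small GTPase Rheb. TFEB is a transcription factor of the MiT/TFE family that binds short E-box motifs in the promoters of lysosomal and autophagy genes, and mTORC1 itself holds it in the cytoplasm by phosphorylation, through a branch that needs the Rag GTPases and folliculin. Rapamycin inhibits mTORC1 incompletely, and its substrates differ in how far they respond. The study reports another state in cells without TSC2, where TFEB was less phosphorylated and lay in the nucleus. In such cultured cells rapamycin raised its phosphorylation and moved it to the cytoplasm. In cyst-lining cells of Tsc2 KO kidneys TFEB also left the nucleus, after a shorter course of the drug. Intercalated cells, to which several of the genes below belong, are the acid-base cells of the collecting duct. Type A cells secrete protons through a vacuolar proton pump (V-ATPase), type B cells secrete bicarbonate, and both depend on the forkhead factor Foxi1.

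The letters that TFEB is known to prefer, CACGTG, were looked for in the promoters of 30 genes, 9 that the study names and the 21 called genes with the largest changes in their direction. The promoter was the window from 250 bases before to 50 bases after an annotated start in RefSeq on GRCm38.p6. A match was found for 24 of the 30 genes, with 29 promoters. CACGTG stood in 4 of these 29 promoters, and in 2349 of all 32851 promoters of the same length (7.15%). It is its own reverse complement, so both strands were read at once. The 4 windows below are shown because they are the sites where these letters occur near a gene of the comparison. They are written 5′ to 3′ on the strand of the gene, with the motif in capitals.
Rragc (RagC, a GTPase that brings substrates to mTORC1), chr4:123917309-123917338, plus strand: ggtgattccgggCACGTGatagtaccactt
Lamtor1 (the lysosomal anchor of the Ragulator complex), chr7:101905757-101905786, plus strand: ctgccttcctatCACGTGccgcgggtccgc
Aqp6 (a vesicle channel of type A intercalated cells), chr15:99601159-99601188, plus strand: agctggaacagaCACGTGagcactctgaac
Cpsf4l (related to a cleavage and polyadenylation factor), chr11:113709652-113709681, minus strand: cagccagaaagtCACGTGcagtcacctggc
The motif began 112 bases before the start of Rragc, 68 before that of Lamtor1, 29 before that of Aqp6 and 143 before that of Cpsf4l. The longer form TCACGTGA, which contains CACGTG, was in none of the 29 promoters and in 0.974% of all promoters. A match describes the letters only, and their absence from a window says nothing about the factor.

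The reads counted per Tsc2 KO library numbered between 15104557 and 17920869 (median 16544808), and those per DKO library between 17824345 and 22807605 (median 20278964). Replicates differed by 17.9 to 54.0 times the counting noise per gene, so the spread between libraries and not the depth set the precision. The study states that its experiments used biological replicates, but no label ties each library to a separate mouse, so a p-value is read here as measuring the spread between these libraries. Each DKO library correlated better with its own group than with the other, whereas the Tsc2 KO libraries were less uniform. Tsc2 KO replicate 2 stood apart on the first principal component and had the lowest mean correlation with its own group, 0.965 against 0.969 to 0.981 for the other 5 libraries. Without it, 3 of the 9 increased and 19 of the 21 decreased genes described below were still called.

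The targeted genes were looked at first. The level of Tfeb was 6.50, 3.97 and 6.62 FPKM (fragments relative to the length of the gene and the size of the library) in the 3 Tsc2 KO libraries and 3.27, 3.29 and 3.26 FPKM in the 3 DKO libraries. All DKO libraries lay below all Tsc2 KO libraries, and Tsc2 KO replicate 2 came closest to them. The difference was -0.80 ± 0.18 on the log2 scale (DKO minus Tsc2 KO, ± SE), with an unadjusted p of 0.000499 and an adjusted p of 0.0883 by the quasi-likelihood test of edgeR, adjusted after Benjamini and Hochberg over 17027 tested genes, so Tfeb itself did not pass. Without Tsc2 KO replicate 2 its adjusted p was 0.0198, and DESeq2 gave 0.00773. Reads of the undeleted part of the gene and of unrecombined cells are included in these values. Tsc2 did not separate the groups, at 5.55, 6.50 and 5.06 FPKM in Tsc2 KO and 5.85, 5.97 and 5.83 FPKM in DKO, below the 8.18, 8.56 and 8.93 FPKM of the rapamycin-treated controls (0.04 ± 0.10, adjusted p = 0.919 between DKO and Tsc2 KO). Cdh16, whose promoter drives the Cre, was at 394, 305 and 404 FPKM in Tsc2 KO and 402, 415 and 411 FPKM in DKO (0.15 ± 0.15, adjusted p = 0.764). Markers of kidney tubules were high throughout, as the proximal tubule receptor Lrp2 lay between 121 and 146 FPKM and the thick limb protein Umod between 1251 and 2020 FPKM in all 6 libraries.

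Few genes separated DKO from Tsc2 KO kidneys under rapamycin, and more of them were lower than higher in DKO. A gene was called when its adjusted p was 0.05 or lower and its mean FPKM reached 5 in either group, which 7566 of the tested genes did. By this rule 21 genes (0.278%) were decreased and 9 genes (0.119%) were increased in DKO. The 21 decreased genes had a median log2 fold change of -1.34 (range -9.21 to -0.58), and the 9 increased genes one of 0.98 (range 0.59 to 4.40), against a median of -0.00437 over all tested genes. At an unadjusted p under 0.05, 855 genes (5.02%) were higher and 947 genes (5.56%) were lower in DKO. DESeq2 called more genes at the same thresholds, 57 increased (0.754%) and 101 decreased (1.34%), and its calls included all 30 genes called by edgeR. By contrast, edgeR fitted to the compared groups alone kept the calls of 2 of the 9 increased and 13 of the 21 decreased genes, and a replicate block kept 4 and 17. Without a filter on low counts, 37 genes were increased and 54 decreased, and 16 and 42 without the 4 vehicle libraries of the same fit in which adrenal markers stood out. With DKO replicate 1, 2 or 3 left out, 11, 13 and 9 genes were decreased and 2, 4 and 2 were increased, whereas these counts were 18 and 4 without Tsc2 KO replicate 1, 22 and 3 without replicate 2, and 19 and 19 without replicate 3. Of the 30 genes, 9 were still called whichever library of the cohort's Tsc2 KO and DKO rapamycin groups was left out. These were Dmrt2, Irf9, Oxgr1, Hfe, Gm45847, Atp6v0d2, Rcan2 and Dkk3 among the decreased genes and Akr1c14 among the increased ones. Of these 9, Hfe was not called by edgeR on the compared groups alone (adjusted p = 0.0692).

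**Figure D1:**
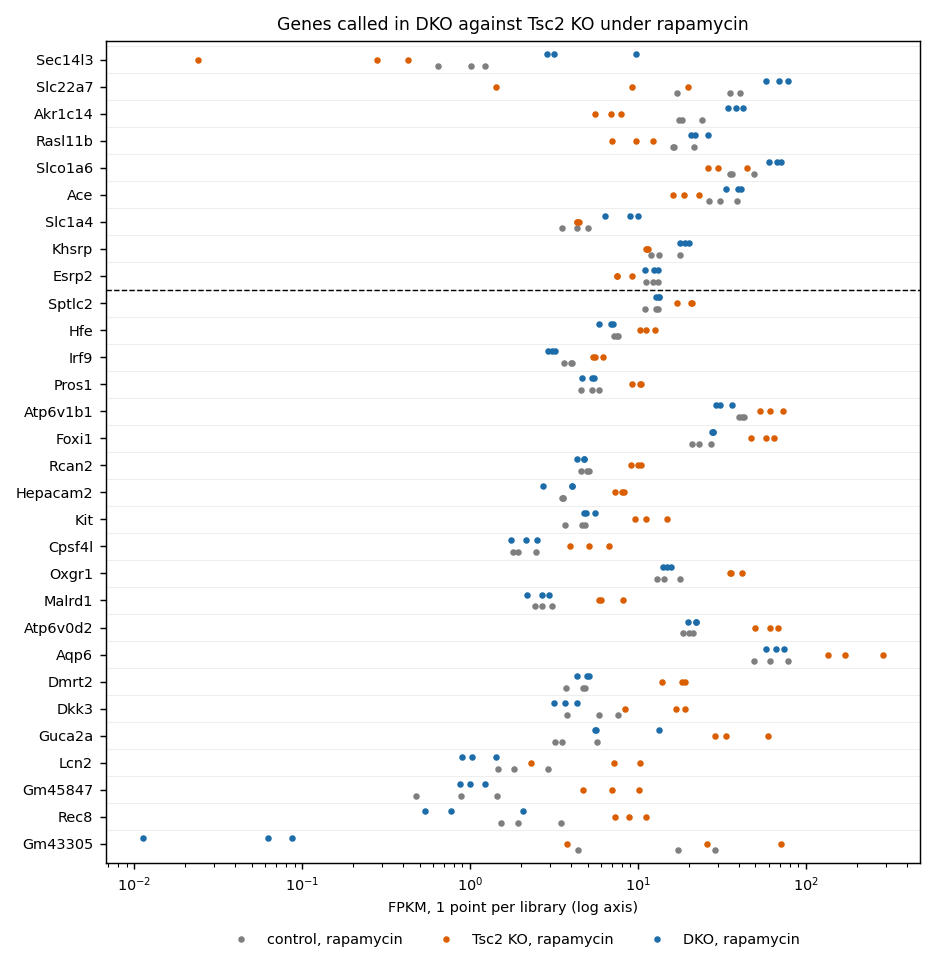
Deposited FPKM (log axis) of the 30 genes called between rapamycin-treated DKO and Tsc2 KO kidneys, with 1 point per library for control, Tsc2 KO and DKO. In each gene the 3 DKO points lie entirely below (21 genes) or entirely above (9 genes) the 3 Tsc2 KO points. Over all tested genes the DKO libraries lay below in 8.13% and above in 7.92%. The 30 genes were chosen by a small p, which favours such separation.

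Markers of intercalated cells had lower estimates in DKO, and 5 of the 21 decreased genes are on that list. Of its 13 tested members, 5 fell in DKO and none rose, where 0.278% of all genes were decreased and 0.119% increased. All 13 had a lower estimate in DKO against 50.7% of all tested genes, and the median log2 fold change was -0.96. At an unadjusted p under 0.05, 10 of the 13 were lower, against 5.56% of all tested genes. In 11 of the 13 the DKO libraries lay below all Tsc2 KO libraries, as in 8.13% of all tested genes (7.92% had the DKO libraries above). DESeq2 called 7 of them decreased, against 1.34% of all genes. This list and those below were chosen with earlier results of these data known, so such counts describe the lists and do not test them. A whole-kidney library cannot tell fewer intercalated cells from less of these transcripts per cell.

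Foxi1 (chr11:34204338-34208089, minus strand, in GRCm38 as all positions of genes here), the forkhead factor of intercalated cells, was at 64.6, 47.4 and 58.2 FPKM in the Tsc2 KO libraries and at 28.0, 28.1 and 27.4 FPKM in the DKO libraries. The DKO values were nearly the same in the 3 libraries and lay well below the lowest Tsc2 KO value, with a log2 fold change of -1.03 ± 0.19 (adjusted p = 0.0323). Atp6v0d2 (chr4:19876841-19922605, minus strand), the d2 subunit of the membrane sector of the V-ATPase, was at 49.8, 68.5 and 61.0 FPKM in Tsc2 KO and 22.3, 22.2 and 19.7 FPKM in DKO. Its groups did not overlap, and the log2 fold change was -1.48 ± 0.21 (adjusted p = 0.00531). The kidney form of the B subunit, Atp6v1b1 (chr6:83742990-83758855, plus strand), was at 73.2, 61.0 and 53.4 FPKM in Tsc2 KO and 30.9, 36.5 and 29.2 FPKM in DKO. The lowest Tsc2 KO library was again above the highest DKO library (-0.96 ± 0.16, adjusted p = 0.0166). Aqp6 (chr15:99601400-99605477, plus strand), one of the 4 genes with CACGTG in the promoter window, was at 172, 135 and 289 FPKM in Tsc2 KO, where replicate 3 stood highest, and at 74.3, 65.9 and 58.1 FPKM in DKO. The log2 fold change of Aqp6 was -1.59 ± 0.26 (adjusted p = 0.0122). Kit, the receptor tyrosine kinase of stem cell factor, was at 14.8, 11.2 and 9.57 FPKM in Tsc2 KO and 4.79, 5.57 and 4.87 FPKM in DKO (-1.23 ± 0.20, adjusted p = 0.0122).

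With each of the 6 libraries left out in turn, Foxi1 was still called in 1 of the 6 fits and Atp6v1b1, Aqp6 and Kit in 3 of the 6, whereas Atp6v0d2 was called in all 6. Their highest adjusted p with 1 library left out was 0.155 for Foxi1, 0.118 for Atp6v1b1 and 0.0928 for Aqp6, all without DKO replicate 3, and 0.0882 for Kit without DKO replicate 1. Among the 8 markers that were not called, Slc4a1, the basolateral chloride-bicarbonate exchanger of type A cells, was at 70.4, 27.8 and 66.0 FPKM in Tsc2 KO and 22.3, 26.5 and 25.6 FPKM in DKO (-1.14 ± 0.30, adjusted p = 0.145). Its Tsc2 KO replicate 2 lay close to the DKO libraries while the other two lay far above, and without that replicate the log2 fold change was -1.46 (adjusted p = 0.0299 in edgeR). The same order held for Atp6v1g3, another kidney subunit of the pump, at 82.2, 31.6 and 54.3 FPKM in Tsc2 KO and 29.4, 30.7 and 26.6 FPKM in DKO (-0.96 ± 0.31, adjusted p = 0.248). The markers of type B cells on this list gave smaller differences. Their log2 fold changes were -0.54 (adjusted p = 0.568) for the anion exchanger pendrin (Slc26a4) and -0.46 (adjusted p = 0.459) for the exchanger Slc4a9. Those of the homeobox factor Hmx2 and of Insrr, a receptor related to the insulin receptor, were -0.40 (adjusted p = 0.754) and -0.00430 (adjusted p = 0.999). Genes outside the list were not sorted by cell type.

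The rapamycin-treated controls give the level of these genes in kidneys with intact Tsc2. Their comparisons share the Tsc2 KO or the DKO libraries with the one above, so the values are only set side by side. Foxi1 was at 27.2, 23.1 and 21.0 FPKM in the controls, Atp6v0d2 at 18.5, 20.1 and 21.1 FPKM and Aqp6 at 60.8, 78.7 and 48.9 FPKM. Tsc2 KO minus control was 1.25 for Foxi1, 1.59 for Atp6v0d2, 1.66 for Aqp6, 1.44 for Kit and 0.59 for Atp6v1b1 on the log2 scale. DKO minus control was 0.23, 0.10, 0.07, 0.21 and -0.37 in the same order, and none of these 5 passed. The summed level of the 13 markers was 381, 414 and 364 FPKM in the controls, 757, 620.2 and 786 FPKM in Tsc2 KO and 369, 381 and 339 FPKM in DKO.

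**Figure D2:**
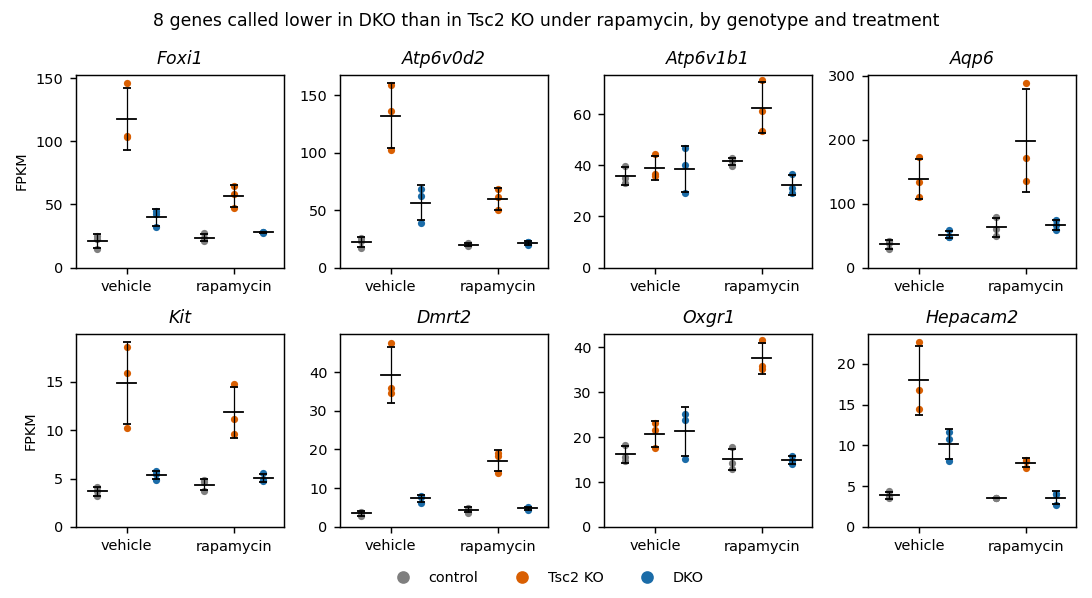
Deposited FPKM of 8 genes called lower in DKO than in Tsc2 KO under rapamycin, by genotype and treatment, with 1 point per library, a bar at the mean and an error bar of 1 SD (3 libraries per group). Oxgr1 and Atp6v1b1 separate DKO from Tsc2 KO under rapamycin but not under vehicle, while Foxi1, Atp6v0d2, Aqp6, Kit, Dmrt2 and Hepacam2 have lower means in DKO under both.

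Other decreased genes are not on the marker list, which does not place them outside intercalated cells. Dmrt2 (chr19:25672420-25679010, plus strand), a transcription factor with a DM domain, was at 19.0, 13.9 and 18.2 FPKM in Tsc2 KO and 5.07, 4.96 and 4.35 FPKM in DKO. It had the smallest adjusted p among the decreased genes, with a log2 fold change of -1.83 ± 0.17 (adjusted p = 0.000116). Oxgr1 (chr14:120019585-120042435, minus strand), the receptor for alpha-ketoglutarate, was at 35.3, 41.6 and 35.8 FPKM in Tsc2 KO and 14.8, 15.8 and 14.0 FPKM in DKO. Every DKO library lay at or below 15.8 FPKM and every Tsc2 KO library at or above 35.3 FPKM, and the log2 fold change was -1.34 ± 0.18 (adjusted p = 0.00354). Hepacam2, an adhesion protein of the immunoglobulin family, was at 8.08, 7.25 and 8.26 FPKM in Tsc2 KO and 4.03, 4.06 and 2.72 FPKM in DKO (-1.13 ± 0.18, adjusted p = 0.0123), and its adjusted p was 0.0806 without DKO replicate 3.

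Some of the decreased genes encode secreted proteins. Guca2a (chr4:119637704-119639471, plus strand) encodes guanylin, a peptide that activates guanylate cyclase C, and was at 28.8, 33.5 and 59.2 FPKM in Tsc2 KO and 13.3, 5.60 and 5.54 FPKM in DKO. Tsc2 KO replicate 3 was the highest library and DKO replicate 1 the highest of its group, without overlap (-2.32 ± 0.34, adjusted p = 0.00711). Dkk3, a secreted protein of the Dickkopf family, was at 8.39, 19.1 and 16.8 FPKM in Tsc2 KO and 3.66, 3.17 and 4.35 FPKM in DKO (-1.99 ± 0.29, adjusted p = 0.00601). Lcn2, the siderophore-binding lipocalin used as a marker of tubular injury, was at 7.21, 2.32 and 10.2 FPKM in Tsc2 KO and 1.03, 0.891 and 1.42 FPKM in DKO. Tsc2 KO replicate 2 was much closer to the DKO libraries than the other two were (-2.56 ± 0.45, adjusted p = 0.0229), and the gene was still called in 1 of the 6 fits with 1 library left out (adjusted p of 0.00242 without Tsc2 KO replicate 2, and 0.132 without DKO replicate 2). Pros1, the anticoagulant protein S, had a log2 fold change of -0.96 ± 0.15 (adjusted p = 0.0105). The adjusted p of Guca2a was 0.0623 without DKO replicate 3, and that of Pros1 was 0.0799 without DKO replicate 1.

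The other decreased genes have varied roles. Irf9, the DNA-binding subunit of the interferon-stimulated complex, was at 6.22, 5.40 and 5.56 FPKM in Tsc2 KO and 2.89, 3.22 and 3.08 FPKM in DKO (-0.90 ± 0.10, adjusted p = 0.00113). Its gene model overlaps that of Rnf31 on the same strand, so reads of both genes could be mixed. The meiotic cohesin Rec8 lies 8007 bases further along the same chromosome and was at 8.88, 7.33 and 11.1 FPKM in Tsc2 KO and 0.538, 0.765 and 2.06 FPKM in DKO (-3.01 ± 0.48, adjusted p = 0.0122). Hfe, the hemochromatosis protein that acts on iron uptake, was at 10.3, 12.6 and 11.1 FPKM in Tsc2 KO and 6.94, 5.87 and 7.06 FPKM in DKO (-0.78 ± 0.10, adjusted p = 0.00392). Rcan2, a regulator of calcineurin, was at 10.4, 9.13 and 9.93 FPKM in Tsc2 KO and 4.78, 4.36 and 4.79 FPKM in DKO (-1.08 ± 0.16, adjusted p = 0.00601). Sptlc2, a subunit of the enzyme that begins sphingolipid synthesis, had the smallest of these changes at -0.58 ± 0.10 (adjusted p = 0.0238). Malrd1 and Cpsf4l, the latter with CACGTG in its promoter window, had log2 fold changes of -1.35 (adjusted p = 0.0268) and -1.32 (adjusted p = 0.0422). With 1 library left out the highest adjusted p was 0.0886 for Rec8 (without DKO replicate 2), 0.129 for Sptlc2 (without DKO replicate 1), and 0.159 for Malrd1 and 0.206 for Cpsf4l (both without DKO replicate 3).

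Only 2 of the 21 decreased genes do not code for protein. The long intergenic RNA Gm45847 was at 4.68, 6.97 and 10.1 FPKM in Tsc2 KO and 1.23, 1.00 and 0.869 FPKM in DKO (-2.81 ± 0.38, adjusted p = 0.00392). The processed transcript Gm43305 was at 25.8, 3.77 and 71.3 FPKM in Tsc2 KO, from 2336, 283 and 5703 reads, and almost without reads in DKO, which had 1, 7 and 9. Its log2 fold change of -9.21 ± 1.70 had the widest error of the 30 genes (adjusted p = 0.0302, and 0.159 without DKO replicate 3). The rapamycin-treated controls ranged from 4.38 to 28.9 FPKM for this transcript, while the vehicle-treated controls were at 27.4, 0.0464 and 10.7 FPKM, so 1 library with intact Tfeb lay as low as those of DKO, and the value of the vehicle pair was -10.92.

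The 9 increased genes include a pair of organic anion transporters and a pair of enzymes. Akr1c14 (chr13:4049011-4090688, plus strand), an aldo-keto reductase of steroids, was at 5.55, 7.96 and 6.91 FPKM in Tsc2 KO and 34.5, 38.5 and 42.1 FPKM in DKO. The groups lay far apart, and the log2 fold change of 2.49 ± 0.21 had the smallest adjusted p of the comparison (3.53e-05). Slc22a7, an organic anion transporter, was at 9.22, 1.43 and 19.8 FPKM in Tsc2 KO and at 58.2, 77.8 and 69.3 FPKM in DKO (2.75 ± 0.55, adjusted p = 0.0480). A second organic anion transporter, Slco1a6, was at 26.3, 29.9 and 44.4 FPKM in Tsc2 KO and 71.3, 66.8 and 60.1 FPKM in DKO (0.98 ± 0.18, adjusted p = 0.0323). Ace, the angiotensin-converting enzyme, was at 16.1, 18.9 and 23.1 FPKM in Tsc2 KO and 39.5, 40.8 and 33.4 FPKM in DKO (0.97 ± 0.19, adjusted p = 0.0464). Sec14l3, a lipid-binding protein of the Sec14 family, had the largest log2 fold change, 4.40 ± 0.71 (adjusted p = 0.0122), from 14, 1 and 19 reads in Tsc2 KO against 141, 195 and 561 reads in DKO.

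The remaining increased genes were of other kinds. Rasl11b, a small GTPase of the Ras family, had a log2 fold change of 1.24 ± 0.21 (adjusted p = 0.0167). Slc1a4, a transporter of neutral amino acids, had one of 0.95 ± 0.18 (adjusted p = 0.0361), and Khsrp, an RNA-binding protein that promotes decay of AU-rich messages, one of 0.74 ± 0.12 (adjusted p = 0.0131). Esrp2, a splicing regulator of epithelial cells, was at 9.19, 7.48 and 7.54 FPKM in Tsc2 KO and 11.1, 13.2 and 12.4 FPKM in DKO (0.59 ± 0.12, adjusted p = 0.0455). Its model overlaps Nfatc3 on the opposite strand, and the libraries carry no strand information. With each of the 6 libraries left out in turn, Akr1c14 was called in all 6 fits, Sec14l3 in 4, Khsrp, Rasl11b and Slc22a7 in 2, and Slco1a6, Slc1a4, Esrp2 and Ace in 1. Apart from Akr1c14, these 9 genes had highest adjusted p-values from 0.0724 for Sec14l3 (without DKO replicate 3) to 0.195 for Esrp2 (without DKO replicate 2). Slco1a6 had its highest, 0.144, without Tsc2 KO replicate 2. Of the 29 tested proximal tubule markers edgeR called 1 increased, Slc22a7, where 0.119% of all genes were increased, and 0 decreased, and the list's median was -0.08 (2 were higher and 0 lower at an unadjusted p under 0.05).

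Comparisons with the rapamycin-treated controls share libraries with that of DKO and Tsc2 KO and are given beside it. The 21 decreased genes had a median of 1.32 for Tsc2 KO minus control and of -0.02 for DKO minus control. The 9 increased genes had medians of -0.73 and 0.72. Over all genes that reach the FPKM minimum, DKO minus control gave 1 increased gene (0.0134%) and 0 decreased genes in edgeR's test. Over all 17027 tested genes, 425 (2.50%) were higher and 278 (1.63%) lower at an unadjusted p under 0.05. The 1 gene was Gm8730 (2.91 ± 0.17, adjusted p = 2.79e-07), named here after its value was seen, whose difference between DKO and Tsc2 KO was -0.40 (adjusted p = 0.358). Tsc2 KO minus control gave 52 increased (0.688%) and 10 decreased genes (0.132%).

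Lysosomal genes, the known targets of TFEB, had lower estimates in DKO but few passed the test. The V-ATPase, which acidifies lysosomes in every cell and the vesicles and apical membrane of intercalated cells, is treated first. Of its 23 tested subunits, 2 fell (Atp6v0d2 and Atp6v1b1, which also stand on the intercalated cell list), none rose, 20 had a lower estimate and the median was -0.35, where 0.278% of all genes were called decreased. At an unadjusted p under 0.05, 14 of the 23 were lower (5.56% over all tested genes) and none was higher, and DESeq2 called 6 decreased (1.34% over all). Without the subunits shared with the intercalated cell list, 10 of 19 were lower at an unadjusted p under 0.05. Summed over the subunits, the level was 1397, 1334 and 1379 FPKM in Tsc2 KO, 1065, 1066 and 1009.6 FPKM in DKO and 1083, 1089 and 1013 FPKM in the controls, without overlap between Tsc2 KO and either of the others. Among subunits of wide expression, Atp6v1a of the catalytic sector had -0.48 (adjusted p = 0.253), Atp6v1h had -0.34 (adjusted p = 0.188) and the accessory protein Atp6ap1 had -0.40 (adjusted p = 0.150). Atp6v0d1, the widely expressed counterpart of Atp6v0d2, was at 61.6, 74.2 and 80.5 FPKM in Tsc2 KO and 65.9, 60.4 and 61.9 FPKM in DKO (-0.20, adjusted p = 0.602).

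Lysosomal proteases came next. None of the 14 tested was called by edgeR, 11 had a lower estimate and the median was -0.40. Of the 14, 7 were lower and 0 higher at an unadjusted p under 0.05, against 5.56% and 5.02% of all tested genes. DESeq2 called 1 of them decreased, where it called 1.34% of all genes decreased. This was Ctsc (cathepsin C, which activates granule proteases), at 7.77, 8.45 and 8.57 FPKM in Tsc2 KO and 5.16, 5.58 and 4.70 FPKM in DKO (-0.68 ± 0.17, adjusted p = 0.106 in edgeR). Cathepsins B and L had log2 fold changes of -0.57 (adjusted p = 0.314) and -0.57 (adjusted p = 0.362), and the aspartic protease cathepsin D of -0.19 (adjusted p = 0.831). The summed level of the proteases overlapped between the groups, at 1775, 1456 and 2348 FPKM in Tsc2 KO and 1902, 1794 and 1611 FPKM in DKO. Several of these proteases are abundant in macrophages, whose markers also had lower estimates in DKO, and the part of those cells in the values was not tested. Without the protease shared with the macrophage list, 6 of 13 were lower at an unadjusted p under 0.05.

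Glycosidases, lipid hydrolases and their cofactors (37 tested) had a median of -0.16, with 0 called by edgeR. Of the 37, 3 were lower at an unadjusted p under 0.05, against 5.56% of all tested genes. DESeq2 called 2 decreased, against 1.34% of all genes, Gusb and Hexa. These are beta-glucuronidase, at 7.45, 8.99 and 7.76 FPKM in Tsc2 KO and 6.56, 5.52 and 5.71 FPKM in DKO (-0.45, adjusted p = 0.110 in edgeR), and the alpha subunit of hexosaminidase (-0.84, adjusted p = 0.142). Lysosomal membrane proteins and transporters (24 tested) had a median of -0.14, 0 calls by either tool and 3 lower at an unadjusted p under 0.05, with -0.17 (adjusted p = 0.717) for Lamp1 and -0.29 (adjusted p = 0.461) for the calcium channel Mcoln1. The autophagy list (38 tested) had a median of -0.08, 0 calls by either tool and 3 lower at an unadjusted p under 0.05. Of the genes of the KEGG lysosome pathway that the study lists for this cohort, 96 were tested and 1 (Atp6v0d2) fell, against 0.278% of all genes. At an unadjusted p under 0.05, 19 were lower, against 5.56%, and 1 was higher, against 5.02%, and the median was -0.17. DESeq2 called 6 of the 96 decreased, against 1.34%, which were Atp6ap1, Atp6v0d2, Atp6v1h, Ctsc, Gusb and Hexa. Without those shared with the intercalated cell, macrophage or V-ATPase lists, 13 of 85 were lower at an unadjusted p under 0.05.

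Of the genes that link TFEB to mTORC1, edgeR called none and DESeq2 called Rragd decreased. Rragd (RagD, a GTPase and a known TFEB target) was at 23.7, 34.6 and 27.1 FPKM in Tsc2 KO and 12.8, 16.9 and 15.3 FPKM in DKO, with 13.3, 12.8 and 12.7 FPKM in the controls. All Tsc2 KO libraries lay above all DKO libraries, and the log2 fold change was -0.93 ± 0.20 (adjusted p = 0.0607) in edgeR and had an adjusted p of 0.00128 in DESeq2. Rragc, with CACGTG in its promoter window, was at 22.4, 33.1 and 30.6 FPKM in Tsc2 KO and 25.4, 23.2 and 23.9 FPKM in DKO (-0.25 ± 0.14, adjusted p = 0.563), and its groups overlapped. Lamtor1, with the same letters, had 0.09 ± 0.16 (adjusted p = 0.890), and the folliculin gene Flcn -0.13 ± 0.13 (adjusted p = 0.764). The other MiT/TFE factors were called by neither tool, with 0.09 ± 0.13 (adjusted p = 0.861) for Tfe3 and -0.26 (adjusted p = 0.601) for Mitf. Gpnmb, a membrane glycoprotein used as a marker of Tsc2-deficient cells, was near 0 in both groups, at 0.102, 0.164 and 0.241 FPKM in Tsc2 KO and 0.113, 0.0138 and 0.00743 FPKM in DKO, against 18.7, 17.0 and 18.4 FPKM in vehicle-treated Tsc2 KO. Mthfd2, the mitochondrial folate enzyme induced by mTORC1, had 0.24 ± 0.19 (adjusted p = 0.707). The list of Tsc2-null markers and TFE targets (13 tested, 5 of which reach the FPKM minimum) had a median of -0.83. Of the 13, 10 had a lower estimate and edgeR called 0. At an unadjusted p under 0.05, 5 were lower and 0 higher, against 5.56% and 5.02% of all tested genes. DESeq2 called Txnip of this list decreased, against 1.34% of all genes.

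**Figure D3:**
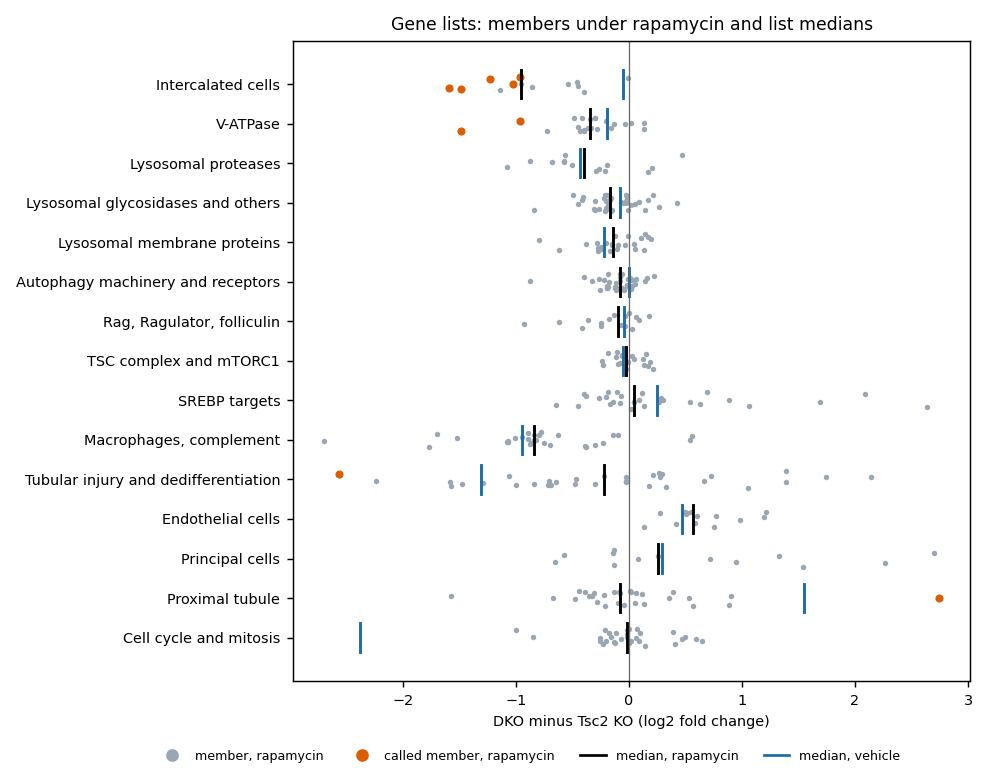
Log2 fold change (DKO minus Tsc2 KO, rapamycin) of the tested members of 15 gene lists, with 1 point per gene (orange where called) and lines at each list's median under rapamycin (black) and vehicle (blue). The intercalated cell list has the lowest median, -0.96, and all of its 13 members lie below 0, while all 14 endothelial markers lie above 0.

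Lists for other cell types and processes were described in the same way. Over all tested genes, 5.56% were lower and 5.02% higher at an unadjusted p under 0.05. Of all genes, edgeR called 0.278% decreased and 0.119% increased, and DESeq2 called 1.34% decreased and 0.754% increased. Of 39 lists, 5 held a called member and 34 held none, and their medians ran from -0.96 to 2.86. Among macrophage, complement and chemokine genes, 0 of 29 were called by edgeR, 12 were lower and 1 was higher at an unadjusted p under 0.05, DESeq2 called C1qb decreased, and the median was -0.84. The complement component C1qb had -1.01 ± 0.26 (adjusted p = 0.137), and the macrophage receptor Adgre1 had -1.70 ± 0.47 (adjusted p = 0.163), whereas the growth factor receptor Csf1r had 0.56 ± 0.18 (adjusted p = 0.235) in the opposite direction. Summed over the list, the level was 731, 490.0 and 572 FPKM in Tsc2 KO and 239, 331 and 380.5 FPKM in DKO, with 354, 244 and 385 FPKM in the controls. The Tsc2 KO libraries were thus the highest of the 9. The part of these cells in the decreased genes was not tested.

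Endothelial markers gave the opposite sign. All 14 had a higher estimate in DKO, where 50.7% of all tested genes had a lower one, and the median was 0.56. Of the 14, 7 were higher and 0 lower at an unadjusted p under 0.05, against 5.02% and 5.56% of all tested genes. While edgeR called 0, DESeq2 called 2 increased (Esam and Plvap), against 0.754% of all genes. The junction protein Esam had 1.22 ± 0.28 (adjusted p = 0.0839). The summed level was 124, 136 and 109 FPKM in Tsc2 KO, 193, 177 and 246 FPKM in DKO and 220.2, 158 and 237 FPKM in the controls, so that all Tsc2 KO libraries lay below all others.

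Principal cells, the sodium- and water-handling partners of intercalated cells in the collecting duct, gave mixed values. Of 13 tested markers none was called by edgeR, and the median was 0.25. Of these, 6 were higher and 2 lower at an unadjusted p under 0.05, against 5.02% and 5.56% of all tested genes. DESeq2 called 2 increased and 1 decreased, against 0.754% and 1.34%. The water channel Aqp2 was at 172, 92.9 and 341 FPKM in Tsc2 KO and 776, 442 and 543 FPKM in DKO (1.54 ± 0.42, adjusted p = 0.158), without overlap. Summed over the list, the level was 776, 537 and 905 FPKM in Tsc2 KO and 1330, 1057 and 1085 FPKM in DKO, also without overlap. The controls were at 978, 980 and 1163 FPKM. Rhcg, an ammonia channel that intercalated cells also express, was lower in DKO by estimate (-0.65 ± 0.17, adjusted p = 0.142).

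Among the 33 tested genes of tubular injury, edgeR called Lcn2 decreased (0.278% of all genes) and DESeq2 called Lcn2 and Clu decreased (1.34% of all). Of the 33, 10 were lower and 2 higher at an unadjusted p under 0.05, against 5.56% and 5.02% of all tested genes, and the median was -0.22. Clusterin (Clu) was at 153, 144 and 124 FPKM in Tsc2 KO and 74.9, 68.9 and 67.4 FPKM in DKO (adjusted p = 0.0607 in edgeR). Interferon-induced genes (16 tested) had a median of -0.51, a lowest value of -1.07 and 0 calls by either tool. Of these, 5 were lower at an unadjusted p under 0.05, against 5.56% of all tested genes. The chemokine Cxcl10, which is not on that list, had -1.59 ± 0.35 (adjusted p = 0.0694). Thick limb and distal tubule, fatty acid oxidation, oxidative phosphorylation and cell cycle lists had medians between -0.10 and -0.02 and 0 calls by edgeR, with at most 3 members at an unadjusted p under 0.05 in either direction and at most 1 called by DESeq2.

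Markers of fat varied widely between libraries of the same genotype. The adipose list had the highest median, 2.86, and all 8 members had a higher estimate in DKO. None of the 8 had an unadjusted p under 0.05 or was called by either tool. In the vehicle pair and the untreated cohort 0 of the 8 were lower in DKO, with medians of 2.55 and 1.11. Their summed level was 539, 6.47 and 174 FPKM in DKO, 12.9, 17.9 and 68.1 FPKM in Tsc2 KO and 37.9, 40.1 and 327 FPKM in the controls, and adiponectin (Adipoq) ran from 0.228 to 32.9 FPKM within DKO. Adrenal markers were at or near 0 in all 9 rapamycin-treated libraries (Th at 0, Cyp11a1 and Cyp11b1 at most 0.0162 FPKM).

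**Figure D4:**
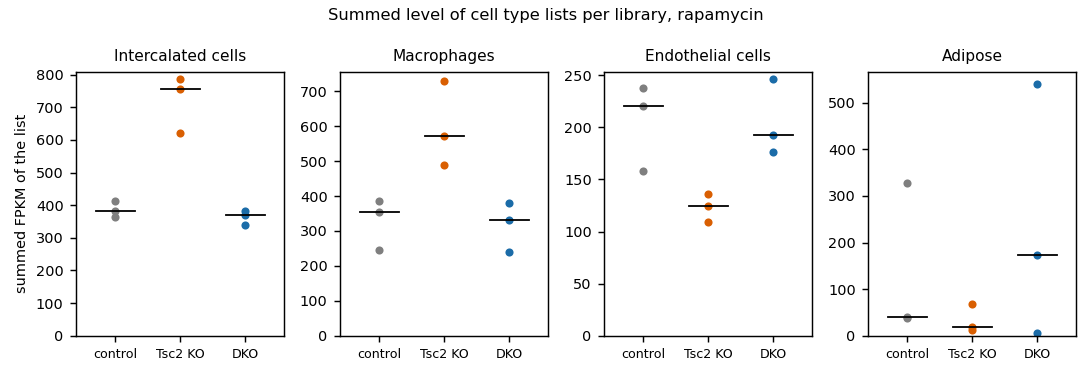
Summed deposited FPKM of 4 marker lists in each rapamycin-treated library, by genotype, with a line at the median. Intercalated cell and macrophage sums are highest in the 3 Tsc2 KO libraries and endothelial sums are lowest there, while adipose sums range from 6.47 to 539 FPKM within DKO.

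The same genotypes under vehicle give the Tfeb effect without the drug. Their libraries are not among the 6 compared above, but they share the fit and its estimate of the spread. Adrenal markers stood out in 4 of the 6, with a summed level of 1413 FPKM in Tsc2 KO replicate 1, 50.9 FPKM in Tsc2 KO replicate 2, 306 FPKM in DKO replicate 1 and 4567 FPKM in DKO replicate 2. The other 14 libraries of the cohort had at most 1.98 FPKM. Under vehicle 1345 genes (16.9%) were increased and 1003 genes (12.6%) were decreased in DKO by the same rule. Of the 21 genes decreased under rapamycin, 19 were lower under vehicle as well, against 44.3% of the genes that reach the FPKM minimum, and 14 of them had an adjusted p of 0.05 or lower, against 9.53%. Their median under vehicle was -0.93. Of the 9 increased genes, all 9 were higher under vehicle, against 55.7% of genes, and 6 had an adjusted p of 0.05 or lower, against 18.3%, with a median of 1.36. Without the 4 libraries with adrenal markers, which leaves 1 vehicle library per genotype whose spread is taken to be that of the other groups, 300 genes were increased and 63 decreased under vehicle. In that fit 17 of the 21 decreased genes were lower, 3 of them with an adjusted p of 0.05 or lower (against 0.436% of genes), and 8 of the 9 increased genes were higher, 3 of them with such a p (against 4.11%). Those that passed were Dmrt2, Dkk3 and Lcn2, and Akr1c14, Slc22a7 and Slco1a6. Values under vehicle are otherwise given with all 6 libraries. Foxi1 was at 104, 147 and 104 FPKM in vehicle-treated Tsc2 KO and 42.4, 32.4 and 45.0 FPKM in vehicle-treated DKO (-1.57 ± 0.19, adjusted p = 4.39e-05), and Atp6v0d2 at 159, 136 and 102 FPKM and 68.0, 38.9 and 62.6 FPKM (-1.23 ± 0.21, adjusted p = 0.000537).

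Whether the effect of Tfeb differed between the treatments was tested directly, as the DKO-minus-Tsc2 KO difference under rapamycin minus that under vehicle. This difference was called higher in 242 genes (2.93%) and lower in 669 genes (8.11%) of 8254. Among the 30 genes called under rapamycin, it was called in 7 of the 21 decreased and 4 of the 9 increased genes. In the other 19 it did not pass, which does not show that the effects were equal. The rapamycin values that chose these 30 genes also enter the difference, so these counts cannot be set against the shares over all genes. Without the 4 vehicle libraries with adrenal markers it was called higher in 14 and lower in 144 genes, and of these 11 genes in Oxgr1, Malrd1 and Akr1c14.

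For 6 of these 7 decreased genes the effect under rapamycin was the larger one, a direction favoured by choosing the genes by that effect. Oxgr1 was at 23.2, 21.6 and 17.6 FPKM in vehicle-treated Tsc2 KO and 25.1, 15.0 and 23.8 FPKM in vehicle-treated DKO, with overlapping groups (0.04, adjusted p = 0.907), and its difference of effects was -1.37 ± 0.25 (adjusted p = 0.00366). Atp6v1b1 was at 36.7, 44.4 and 35.6 FPKM and 46.6, 29.0 and 40.1 FPKM under vehicle (-0.01, adjusted p = 0.965), with a difference of effects of -0.95 ± 0.23 (adjusted p = 0.0201). Guca2a was at 57.2, 94.7 and 73.2 FPKM and 51.6, 61.0 and 48.2 FPKM (-0.49, adjusted p = 0.291), with a difference of -1.84 ± 0.46 (adjusted p = 0.0244), so its level in DKO libraries was high under vehicle and low under rapamycin. The differences of effects for Hfe, Malrd1 and Cpsf4l were -0.55 (adjusted p = 0.0337), -1.20 (adjusted p = 0.0451) and -1.47 (adjusted p = 0.0217). Lcn2 went the other way, from 49.5, 37.6 and 18.7 FPKM in vehicle-treated Tsc2 KO to 0.370, 0.571 and 0.405 FPKM in vehicle-treated DKO, and its decrease was larger under vehicle (-6.29 against -2.56, difference 3.73 ± 0.66, adjusted p = 0.00340).

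The increased genes with a called difference mostly had a larger effect under vehicle, where Tsc2 KO levels were low. Akr1c14 was at 0.0937, 0.136 and 0.251 FPKM in vehicle-treated Tsc2 KO and 9.41, 9.80 and 8.71 FPKM in vehicle-treated DKO, with a difference of effects of -3.35 ± 0.35 (adjusted p = 0.000108). Slc22a7 was at 0, 0.0839 and 0.0967 FPKM and 24.2, 28.6 and 22.4 FPKM under vehicle (-5.86 ± 1.11, adjusted p = 0.00534), and Slco1a6 at 5.71, 5.08 and 6.83 FPKM and 30.3, 26.4 and 33.4 FPKM (-1.38 ± 0.26, adjusted p = 0.00521). Khsrp was the exception, with 0.07 under vehicle, 0.74 under rapamycin and a difference of 0.67 ± 0.17 (adjusted p = 0.0267).

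The intercalated cell list gave both directions under vehicle. Of its 13 members 6 fell and 4 rose, where 12.6% of all genes were decreased and 16.9% increased, and its median was -0.05 against -0.96 under rapamycin. The difference of effects was called lower in 5, against 8.11% of all genes, which were Atp6v1b1 and the markers of type B cells. The 4 type B markers rose in DKO under vehicle, by 3.56 for Slc26a4, 2.82 for Slc4a9, 3.27 for Hmx2 and 3.69 for Insrr on the log2 scale, and had values of -0.54, -0.46, -0.40 and -0.00430 under rapamycin. Without the 4 libraries with adrenal markers the type B markers were still called higher under vehicle and none of the 6 was still called lower. Markers of the proximal tubule had a median of 1.55 under vehicle and -0.08 under rapamycin, cell cycle genes one of -2.38 and -0.02, and injury genes one of -1.31 and -0.22. The V-ATPase list had medians of -0.20 under vehicle and -0.35 under rapamycin, and the lysosomal proteases had -0.43 and -0.40. Differences between these medians were not tested. Without those 4 libraries the medians under vehicle were -0.08 for intercalated cells, 1.26 for the proximal tubule, -2.63 for the cell cycle, -1.03 for injury, -0.07 for the V-ATPase and -0.39 for the proteases.

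**Figure D5:**
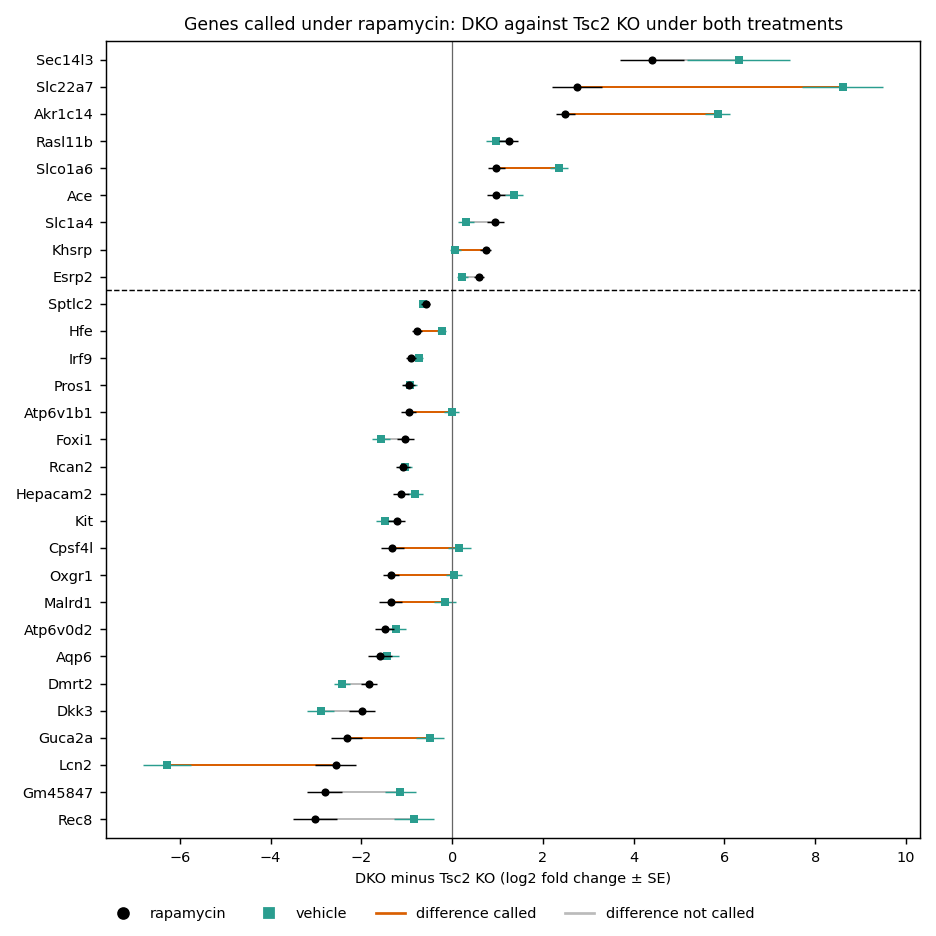
Log2 fold change (DKO minus Tsc2 KO, ± SE) under rapamycin (circles) and vehicle (squares) for 29 of the 30 called genes, leaving out Gm43305. Orange lines join the pairs whose difference of effects was called, 11 in all, such as Akr1c14 (2.49 and 5.85) and Oxgr1 (-1.34 and 0.04).

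The 5 genes of smallest p in each direction of the difference of effects were not called under rapamycin. Those called lower were Slc13a3, a dicarboxylate transporter of the proximal tubule (-3.57, adjusted p = 2.85e-06), Klk1, tissue kallikrein (-3.32, adjusted p = 6.66e-06), Slc4a9 (-3.29, adjusted p = 5.78e-05), the cytochrome Cyp2d12 (-5.59, adjusted p = 2.85e-06) and Kmo, an enzyme of tryptophan breakdown (-2.14, adjusted p = 8.33e-05). Their differences under rapamycin alone lay between -0.61 and 0.17. Those called higher were Lgals3, galectin-3 (2.23, adjusted p = 0.000150), Anxa3, annexin A3 (1.59, adjusted p = 0.000441), Tubb5, a beta-tubulin (1.56, adjusted p = 0.000416), St6gal1, a sialyltransferase (1.65, adjusted p = 0.000668), and the phosphatase Ptpn23 (1.01, adjusted p = 0.000697). Under rapamycin their log2 fold changes lay between 0.05 and 0.29, and under vehicle between -1.94 and -0.87. Without the 4 vehicle libraries with adrenal markers, 8 of these 10 differences still passed, and those of Anxa3 (adjusted p = 0.0788 in edgeR) and Ptpn23 (adjusted p = 0.0528) did not.

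The untreated KspCre cohort gave a further set of DKO and Tsc2 KO libraries. There 9 genes (0.117%) were increased and 13 genes (0.169%) were decreased in DKO. Of the 21 genes decreased under rapamycin, 19 were lower in the untreated DKO as well, against 56.1% of genes, with a median of -0.62, and 1 of them, Dkk3 (-2.65, adjusted p = 0.0212), passed an adjusted p of 0.05, against 0.106%. All 9 increased genes were higher, against 43.9% of genes, with a median of 1.12, and 0 passed an adjusted p of 0.05 in edgeR, against 0.119% of genes. At an unadjusted p under 0.05, 12 of the 21 were lower and 8 of the 9 were higher. The share of all genes at that threshold was not counted in this cohort, so these counts cannot be set against it. For the genes above, the untreated difference was -1.71 for Dmrt2, -0.75 for Atp6v0d2, -0.62 for Sptlc2 and 2.79 for Akr1c14. The 2 decreased genes with a higher estimate there were Lcn2 (0.92) and Irf9 (0.04). The intercalated cell list had a median of -0.23 in that cohort, and macrophage genes had one of 0.63, opposite in sign to the -0.84 under rapamycin. In Tfeb KO against control kidneys of the same cohort, where Tsc2 was intact, 10 of the 21 decreased genes were lower, against 50.4% of genes, and 3 of the 9 increased genes were higher, against 49.6%. By edgeR 0% of these genes passed an adjusted p of 0.05 in either direction, members or not. In the same direction, 2 of the 21 and 0 of the 9 had an unadjusted p under 0.05, again without a share over all genes.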

How the data were processed

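Whole-kidney poly-A RNA was sequenced from libraries without strand information, and no label names a batch. The authors deposited counts, the number of reads per gene as whole numbers for 54532 genes, and FPKM, in which the authors divided fragments by the gene's length and by a size factor of the library. The submitters' processing notes name the build mm10, STAR 2.6.1d, HISAT2 2.0.5, featureCounts 1.5.0-p3 and DESeq2 1.20.0 without their roles. All value columns were mapped to samples (0 were left over), and no library was left out or pooled. Groups come from the genotype and treatment labels.

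The tests were run with edgeR 4.0.16 (R 4.3.3), using filterByExpr, TMM scaling, glmQLFit and glmQLFTest with all 18 libraries of the cohort in one fit of 6 groups and no covariates. The difference of effects is an interaction contrast of that fit, and the untreated cohort had its own fit of 12 libraries. The Benjamini-Hochberg adjustment ran over the 17027 genes tested in the drug cohort and the 16631 tested in the untreated cohort. A call needed an adjusted p of at most 0.05, as in the study, and a group mean of 5 FPKM or more in either group. Standard errors were computed from the log2 fold change and the F statistic. The scripts were tested on simulated data. Lists are described by counts and medians, with no set test. The members and lists were chosen with earlier results of these data known.

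Named genes are the 9 that the study names for this pathway, up to 12 called genes per direction with the largest change and no overlap between groups, the called members (up to 4) or the 2 members of smallest p of each list, and the 5 genes per direction of smallest p in the difference of effects. Other genes, such as Irf9, Hfe, Rcan2, Pros1, Hepacam2, Sptlc2 and Foxi1, were named after their values were seen. Alternatives were DESeq2 1.42.0 and edgeR with all or only the compared groups, RLE scaling, no count filter, no FPKM minimum, 5 FPKM or more in every library, a replicate block and each library left out. List members shared with other lists, and vehicle libraries whose adrenal markers summed to over 10 FPKM, were left out as alternatives chosen after seeing the data. Promoters are from RefSeq tables (GRCm38.p6).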

Additional observations from a re-analysis of the deposited data

Results flagged for a closer look

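The difference between the Tfeb effect under rapamycin and that under vehicle, tested as an interaction by edgeR (quasi-likelihood test, Benjamini-Hochberg adjusted), passed in 242 genes in the positive and 669 genes in the negative direction. Among the genes called under rapamycin it was -3.35 for Akr1c14, -5.86 for Slc22a7, -1.38 for Slco1a6 and 0.67 for Khsrp (log2), all increased in DKO. For the decreased genes it was -1.37 for Oxgr1, -0.55 for Hfe, -1.84 for Guca2a, -0.95 for Atp6v1b1, -1.20 for Malrd1, -1.47 for Cpsf4l and 3.73 for Lcn2. A negative value means that DKO lay lower, relative to Tsc2 KO, under rapamycin than under vehicle. The rapamycin values that chose these genes also enter the difference. Adrenal markers stood out in 4 of the 6 vehicle libraries that enter it.

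The genes with the smallest p for this difference in the negative direction had values of -3.57 for Slc13a3, -5.59 for Cyp2d12, -3.32 for Klk1, -3.29 for Slc4a9 and -2.14 for Kmo. In the positive direction they had values of 2.23 for Lgals3, 1.59 for Anxa3, 1.56 for Tubb5, 1.65 for St6gal1 and 1.01 for Ptpn23. None of these 10 genes was called under rapamycin alone. Without the 4 vehicle libraries with adrenal markers, 14 genes passed in the positive and 144 in the negative direction. The part of the differing Tsc2 KO levels under vehicle in these values was not tested.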

How the results depend on the processing

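The counts of called genes depended on the tool and on single libraries. For the 9 increased and 21 decreased genes, DESeq2 gave 57 and 101 with all groups and 107 and 134 with only the groups compared, edgeR on only the groups compared gave 13 and 19 (2 of the 9 and 13 of the 21 among them), no filter on low counts gave 37 and 54, no FPKM minimum gave 17 and 35, and a minimum of 5 FPKM in every library left 8 decreased. With 1 library left out there were 2 (without DKO replicate 1 or 3) to 19 (without Tsc2 KO replicate 3) increased and 9 (without DKO replicate 3) to 22 (without Tsc2 KO replicate 2) decreased genes, and 9 of the 30 were called each time. For the difference of effects, the 242 higher genes became 405 with DESeq2 on all groups, 372 on the groups compared, 383 without the FPKM minimum and 125 with it in every library, and the 669 lower genes became 416 in edgeR on the groups compared. Leaving out 1 library gave 119 to 324 higher and 391 to 865 lower genes, the lowest without vehicle DKO replicate 1 and the highest without vehicle DKO replicate 2. Without the 4 vehicle libraries with adrenal markers, left out after seeing the data, 16 genes were increased and 42 decreased under rapamycin (7 of the 9 and 20 of the 21 among them), and 14 were higher and 144 lower in the difference of effects. The cause of these shifts was not tested.

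Same-numbered libraries did not deviate together (correlations of -0.158, 0.051 and -0.082), so the numbers do not pair them. A replicate block gave 6 increased and 18 decreased genes under rapamycin, and 223 higher and 608 lower genes in the difference of effects. Of 74 named genes without a call, 6 changed sign when 1 library was left out, and the many other genes without a call were not examined in this way. Over all alternatives the ranges of the 6 were -0.96 to 0.00406 for Gli1, -1.34 to 0.49 for S100a9 and -0.0525 to 0.17 for Tfe3. They were -0.0943 to 0.22 for Lamtor1, -0.0354 to 0.15 for Tsc2 and -0.24 to 0.31 for Xist. With 1 library left out, list medians ranged from -1.01 to -0.83 for intercalated cells, -0.42 to -0.31 for V-ATPase, -0.54 to -0.25 for lysosomal proteases and 0.04 to 0.40 for principal cells. The spread between libraries, not depth, limits most values, and the lowest counts (Sec14l3, Gm43305) rest on few reads in 1 group.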

Other observations

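Some called genes lie near each other. Of the 30, 4 are on chromosome 14 (Gm43305, Irf9, Rec8 and Oxgr1), 1.64% of the 244 genes there that reach the FPKM minimum, with 8007 bases between Irf9 and Rec8 and 1.31 Mb between Gm43305 and Irf9. On chromosome 17, 3 called genes (Rcan2, Slc22a7 and Khsrp) lie within 10 Mb of the targeted gene Tfeb, 3.53% of the 85 genes of that window, at distances of 3.70, 1.30 and 9.23 Mb. Over the genome 0.278% of genes were decreased and 0.119% increased.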
